A study of Mus musculus with 6 samples.

Results

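The A-type, B-type and E-type cyclins, the cyclin-dependent kinase Cdk2 and the 3 Cdc25 phosphatases were examined in mouse testis as a set of 10 genes: Ccna1, Ccna2, Ccnb1, Ccnb2, Ccne1, Ccne2, Cdk2, Cdc25a, Cdc25b and Cdc25c. They were picked by gene symbol, and all 10 were found among the 21786 symbols counted in every library. Polyadenylated RNA was sequenced from whole testes in 6 libraries. In the first group of 3 libraries, each testis came from a Stra8 -/- male aged 1 year, was grossly enlarged, and per the labels held mainly cells resembling type A spermatogonia. In the second group of 3 libraries, each testis came from a Stra8 +/+ male aged 2 to 4 months. Both groups had a C57BL/6 background. Stra8, switched on by retinoic acid, is required by germ cells to begin meiosis, and the comparison asked how mRNA levels differ between such testes. Age and gross enlargement follow genotype in the labels, so their effects cannot be told apart.

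Cyclins bind cyclin-dependent kinases and switch them on at set points of the cell cycle. E-type cyclins act with Cdk2 around the start of DNA replication, A-type cyclins act with Cdk2 and Cdk1 through replication and into division, and B-type cyclins act with Cdk1 in M phase. Cdc25 phosphatases remove the inhibitory phosphates that hold these kinases inactive. In the mouse, germ cells divide by mitosis as spermatogonia and then by meiosis as spermatocytes. Cyclin A1 is found almost exclusively in the male germ line, where spermatocytes need it to enter the first meiotic division, while cyclin A2 serves mitotic cells. Mice without Cdk2 are viable but sterile, since its loss halts meiotic prophase.

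Depth was 6711021 to 12339771 gene reads per library over the symbols shared by all files. Stra8 itself had 211, 249 and 270 reads in the Stra8-deficient and 120, 132 and 93 reads in the wild-type libraries. The deleted part of the allele is not given in the sources used here, so this does not check the labels. Markers of undifferentiated spermatogonia and of spermatids went with the labels, while the share of meiotic prophase markers overlapped between genotypes. Zbtb16, a marker of undifferentiated spermatogonia, had 4563, 2717 and 3637 reads in Stra8-deficient libraries and 98, 88 and 56 in wild-type libraries, and the protamine gene Prm2 had 9, 0 and 0 reads against 56813, 66280 and 45419. The third Stra8-deficient library was counted on a longer gene list than the other 5. Levels are given in CPM, the usual depth-scaled read count, after TMM scaling of the libraries (the trimmed mean of M-values). A log2 fold change sets Stra8-deficient against wild type, so that positive values mean higher in Stra8-deficient testes, and is printed with its approximate SE (standard error). A gene was called at a Benjamini-Hochberg adjusted p under 0.05 over the 15018 genes tested in edgeR's quasi-likelihood test. In bulk tissue, fewer cells of a type and less RNA per cell cannot be told apart.

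All 10 genes passed the filter on low counts. Of these, 9 were called, 5 higher and 4 lower, and 1 was not called. Among all genes tested 75.8% were called, 39% higher and 36.7% lower, so the share of the set that was called says little about it. The groups did not overlap in CPM for 9 of the 10 genes and for 80.2% of all genes tested. With TMM scaling the genes differed in direction within families. In the A-type and B-type cyclins and in the Cdc25 phosphatases, closely related genes moved in opposite directions. With libraries scaled to a list of Sertoli cell genes, Ccnb2 (1.69) and Cdc25a (1.84) were higher too. Only the A-type pair then stayed opposite. That scaling takes the level of the listed genes as equal between genotypes, which was not tested. The median log2 fold change of the 10 genes was 0.26, and that of all genes tested was 0.11.

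**Figure D1:**
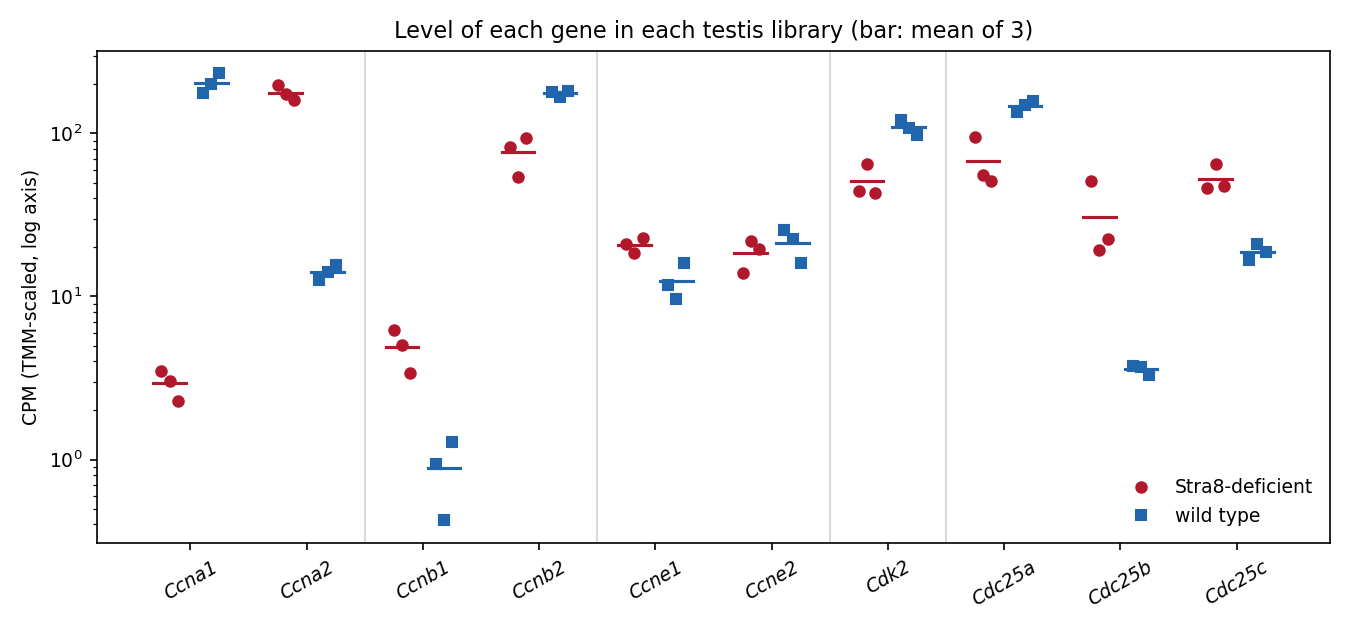
Level of each of the 10 genes in CPM (log axis) in each library, with Stra8-deficient libraries as red circles left of wild-type libraries as blue squares, and a bar at each mean of 3. Ccna1 and Ccna2 trade places between the genotypes, and the groups overlap for Ccne2.

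The A-type cyclins exchanged dominance. Ccna1, the germ-line cyclin, was at 3.51, 3.05 and 2.28 CPM in Stra8-deficient testes, against 176, 202 and 234 CPM in wild-type testes. It was low in every Stra8-deficient library, with 35, 32 and 34 reads against 1126, 1428 and 1278 in wild type. The change amounted to -6.12 ± 0.25 on the log2 scale (edgeR, adjusted p = 7.21e-08), a mean level 69.2-fold higher in wild type. Ccna2, the mitotic cyclin, was at 198, 175 and 161 CPM in Stra8-deficient testes, against 12.6, 14.1 and 15.6 CPM in wild-type testes. Every Stra8-deficient library was thus far above every wild-type library. Its log2 fold change was 3.66 ± 0.19 (edgeR, adjusted p = 2.48e-07), 12.6-fold by the means.

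Of all reads of the A-type pair, Ccna1 held 1.62 ± 0.192% in Stra8-deficient and 93.5 ± 0.241% in wild-type libraries (SD, n = 3 each). The shares were tight within each genotype, at 1.74%, 1.71% and 1.40% in Stra8-deficient libraries and 93.3%, 93.5% and 93.8% in wild-type libraries. A ratio of 2 genes within a library does not depend on how libraries are scaled. The log2 ratio of Ccna2 to Ccna1 was 5.80, 5.82 and 6.12 in Stra8-deficient libraries and -3.79, -3.83 and -3.90 in wild-type libraries. The difference of 9.75 corresponds to an 864-fold change of the ratio (exact two-sided permutation test, p = 0.1, the smallest that 3 against 3 libraries can give). Ccna2 shares 16.2% of its 40-base windows with Exosc9 on the opposite strand, and Ccna1 shares 8.75% with the antisense RNA 4931419H13Rik. Strand handling is not given in the sources used here, so reads there cannot be assigned. Exosc9, an RNA exosome subunit gene, changed less than Ccna2 (0.69 ± 0.20; edgeR, adjusted p = 0.012).

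**Figure D2:**
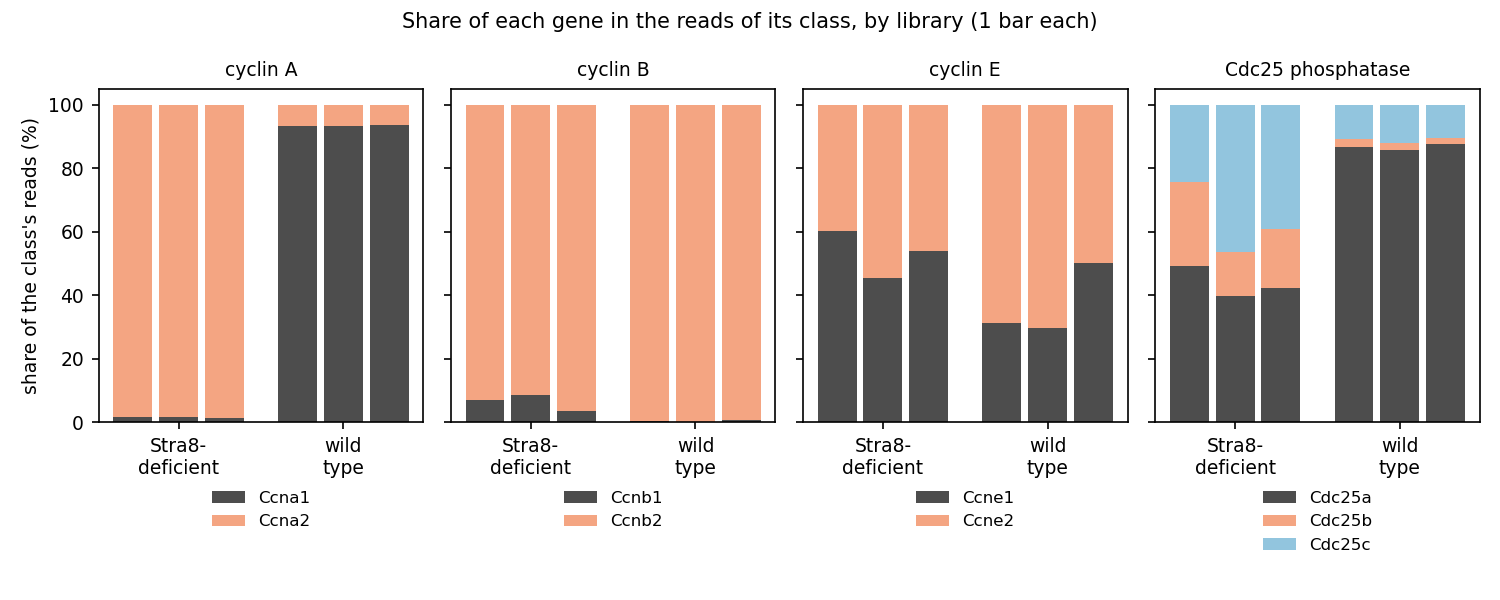
Share of each gene in the summed reads of its class (cyclin A, cyclin B, cyclin E, Cdc25), in percent, with 1 stacked bar per library and the 3 Stra8-deficient libraries left of the 3 wild-type libraries. Ccna1 holds 1.40% to 1.74% of the cyclin A reads in Stra8-deficient libraries, and Cdc25a takes less of the Cdc25 reads there than in wild type.

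The B-type cyclins also moved apart, though from very different levels. Ccnb2 was the prevalent transcript of the pair in every library. It was at 82.6, 53.7 and 94.4 CPM in Stra8-deficient testes, against 180, 166 and 183 CPM in wild-type testes. The wild-type libraries lay close together and above all Stra8-deficient libraries, which spread 1.76-fold from lowest to highest. This gave a log2 fold change of -1.20 ± 0.22 (edgeR, adjusted p = 9.15e-04). Ccnb1, the B-type cyclin that mouse embryos cannot do without, had few reads: 62, 53 and 51 in Stra8-deficient and 6, 3 and 7 in wild-type libraries. In CPM this was 6.22, 5.05 and 3.42 against 0.937, 0.424 and 1.28. The groups did not overlap, and Ccnb1 was called higher, at 2.48 ± 0.48 in log2 (edgeR, adjusted p = 0.00127). The log2 ratio of Ccnb1 to Ccnb2 averaged -3.96 ± 0.719 in Stra8-deficient and -7.64 ± 0.687 in wild-type libraries (SD, n = 3 each; exact two-sided permutation test, p = 0.1). The level of Ccnb1 is uncertain, because 44.8% of its 40-base windows occur in transcripts of other annotated genes, 37.2% in the pseudogene Ccnb1-ps. The deposited counter of reads with several placements stands at 0 in the 4 files that list it, and how such reads were handled is not given in the sources used here. None of the 40-base windows of Ccnb2 was shared.

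The gene starts of Ccna1, Ccnb1 and Ccnb2 are printed here because, with TMM, the B-type pair went opposite ways and Ccna1 fell the most. The sequences are RefSeq promoters of build GRCm38.p6, 250 bases before to 50 bases after the gene start, 5′ to 3′ on the gene's strand; the counts were made on mm9. Capitals mark CCAAT boxes (CCAAT), the cell cycle homology region (CHR, TTTGAA), the E2F motifs TTTGGCGC and TTTCCCGC, and the MYB core CAACNG, each searched on both strands. No marked motif overlaps another.
Ccna1, chr3:55055006-55055305, minus strand: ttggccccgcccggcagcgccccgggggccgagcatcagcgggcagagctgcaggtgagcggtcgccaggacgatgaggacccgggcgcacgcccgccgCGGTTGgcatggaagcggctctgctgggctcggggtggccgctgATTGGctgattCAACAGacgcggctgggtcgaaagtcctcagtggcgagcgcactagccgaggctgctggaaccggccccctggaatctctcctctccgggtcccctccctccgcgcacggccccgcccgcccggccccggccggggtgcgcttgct
Ccnb1, chr13:100786437-100786736, minus strand: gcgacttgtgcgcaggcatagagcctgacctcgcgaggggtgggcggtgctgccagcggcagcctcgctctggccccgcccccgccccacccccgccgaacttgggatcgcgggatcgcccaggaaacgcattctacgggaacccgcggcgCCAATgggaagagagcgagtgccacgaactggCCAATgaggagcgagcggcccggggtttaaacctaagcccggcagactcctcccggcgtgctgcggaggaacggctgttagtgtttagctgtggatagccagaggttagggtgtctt
Ccnb2, chr9:70421505-70421804, minus strand: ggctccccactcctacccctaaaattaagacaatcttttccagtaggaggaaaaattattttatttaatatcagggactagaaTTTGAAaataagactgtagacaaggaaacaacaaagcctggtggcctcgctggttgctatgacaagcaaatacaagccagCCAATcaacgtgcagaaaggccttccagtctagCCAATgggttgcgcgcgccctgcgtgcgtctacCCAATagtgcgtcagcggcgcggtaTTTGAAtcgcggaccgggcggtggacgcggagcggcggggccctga

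The Ccnb2 window held 3 CCAAT boxes, with 33 bases from the start of each to the start of the next, and 2 CHR matches. The Ccnb1 window held 2 CCAAT boxes whose starts lay 32 bases apart, and the Ccna1 window held 1 CCAAT box and 2 MYB cores. Promoters of 7 of the 10 genes were searched, without those of Ccna2, Ccne2 and Cdc25c. Member promoters on chromosome 18, where Cdc25c lies, were left out by the selection. A CCAAT box stood in 6 of these 7 and in 37.4% of all 32851 RefSeq promoter windows. The GC box (GGGCGG), also searched on both strands but not marked in capitals, stood in 7 of 7 (35.7% of all windows). The MYB core stood in 1 of 7 (35.0% of all windows), the CHR in 1 of 7 (17.9%) and an E2F motif in 2 of 7, Cdk2 and Cdc25a (1.56%). A match is a string of letters in the window and was not tested for binding.

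The E-type cyclins, which start DNA replication with Cdk2, changed little with TMM scaling. The size of their change depended on the scaling. With library size alone the log2 fold change was 1.35 for Ccne1 and 0.40 for Ccne2. With libraries scaled to the Sertoli list it was 3.68 and 2.86. Ccne1 was at 21.1, 18.4 and 22.8 CPM in Stra8-deficient testes, against 11.7, 9.60 and 16.1 CPM in wild-type testes. The groups did not overlap, and Ccne1 was called higher at 0.74 ± 0.26 (edgeR, adjusted p = 0.0265). This call was lost in 4 of the 6 fits that leave out a library, with log2 fold changes of 0.56 to 0.69. In edgeR the adjusted p was 0.0504 with the first Stra8-deficient library omitted and 0.0521 with the third. It was 0.103 with the first wild-type library omitted and 0.142 with the second. It was lost too with RLE size factors (0.62) and in DESeq2 (0.62). Ccne2 was at 14, 22 and 19.4 CPM in Stra8-deficient and 25.6, 22.6 and 16 CPM in wild-type testes. These ranges overlap, and the log2 fold change of -0.21 ± 0.27 was not called (edgeR, adjusted p = 0.485). The log2 ratio of Ccne1 to Ccne2 averaged 0.19 ± 0.428 in Stra8-deficient and -0.78 ± 0.69 in wild-type libraries, and the groups overlapped (SD, n = 3 each; exact two-sided permutation test, p = 0.2). Ccne2 shares 18% of its 40-base windows with Ints8 on the opposite strand, which rose by 1.16 ± 0.22 (edgeR, adjusted p = 9.95e-04).

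Cdk2, the kinase that A-type and E-type cyclins activate, was at 44.4, 64.9 and 43.2 CPM in Stra8-deficient testes, against 121, 108 and 98.5 CPM in wild-type testes. Every Stra8-deficient library lay below every wild-type library. Its log2 fold change came to -1.11 ± 0.21 (edgeR, adjusted p = 9.63e-04). Relative to Cdk2, Ccna1 dropped while the other 3 cyclins tested against it gained. The log2 ratio of Ccna1 to Cdk2 averaged -4.09 ± 0.394 in Stra8-deficient and 0.89 ± 0.359 in wild-type libraries. For Ccna2 to Cdk2 the averages were 1.83 ± 0.367 in Stra8-deficient and -2.95 ± 0.302 in wild-type libraries. In wild type Ccna1 thus had more reads than the kinase and Ccna2 fewer, and in Stra8-deficient testes the order was the other way round. The ratio of Ccne1 to Cdk2 averaged -1.27 ± 0.479 against -3.15 ± 0.479, and that of Ccne2 to Cdk2 averaged -1.46 ± 0.271 against -2.37 ± 0.214 in wild type (log2; SD, n = 3 each). The groups did not overlap in any of these 4 ratios (exact two-sided permutation test, p = 0.1 each). In all, 10 such ratios were compared, and the exact permutation p adjusted over them was 0.111 for the 9 at p = 0.1 and 0.2 for Ccne1 to Ccne2.

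**Figure D3:**
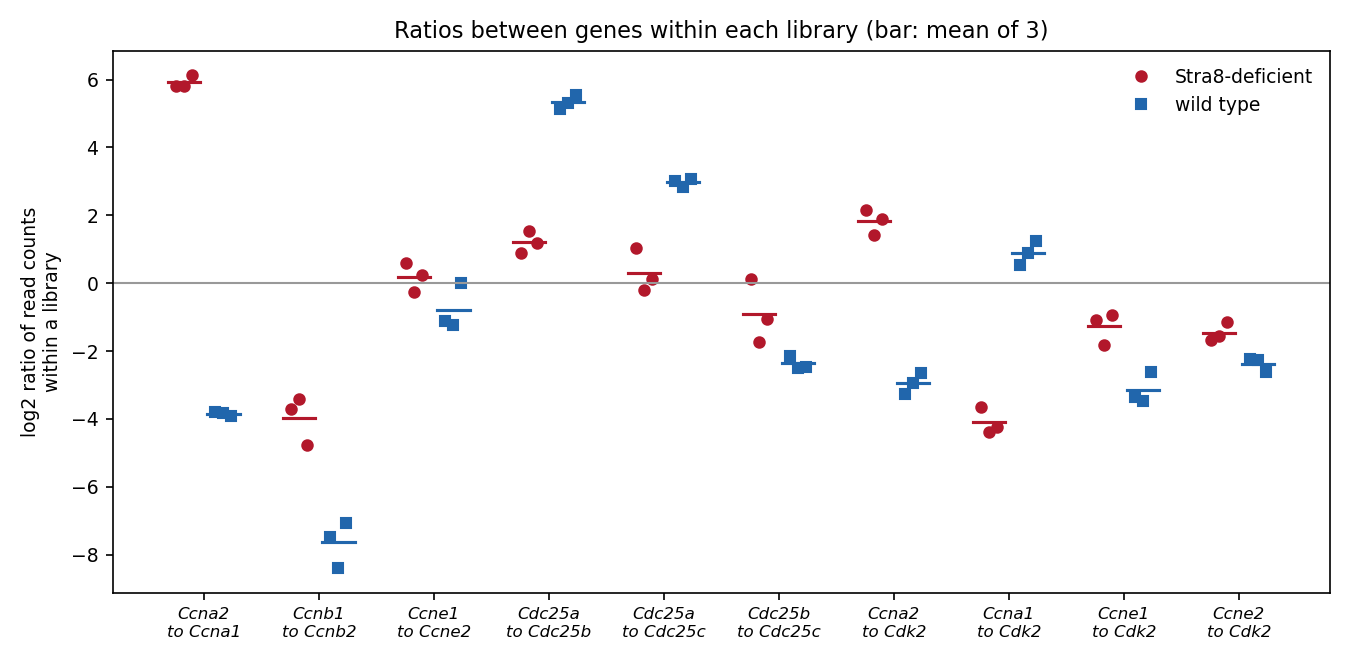
Log2 ratio of the read counts of 2 genes within a library, for the 10 pairs compared, with Stra8-deficient libraries (red circles) left of wild-type libraries (blue squares) and a bar at each mean of 3. The ratio of Ccna2 to Ccna1 differs by 9.75 between genotypes, and the groups overlap for Ccne1 to Ccne2.

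The Cdc25 phosphatases split. Cdc25a, which acts on Cdk2 and Cdk1 from the start of replication and is needed by early mouse embryos, fell. It was at 95, 55.9 and 51.4 CPM in Stra8-deficient testes, against 135, 149 and 158 CPM in wild-type testes. No library of one genotype reached the range of the other, and the change was -1.13 ± 0.25 in log2 (edgeR, adjusted p = 0.00243). Cdc25b, which mouse oocytes need to resume meiosis, rose. It was at 50.8, 19.3 and 22.6 CPM in Stra8-deficient testes, against 3.75, 3.67 and 3.30 CPM in wild-type testes. Its first Stra8-deficient library stood above the other 2, a 2.63-fold range, while the wild-type libraries agreed within 1.13-fold. Its log2 fold change of 3.10 ± 0.41 (edgeR, adjusted p = 1.11e-04) became 2.51 when the first Stra8-deficient library was left out. Cdc25c, a phosphatase of mitotic entry, was at 46.6, 64.9 and 47.3 CPM in Stra8-deficient testes, against 16.7, 20.9 and 18.7 CPM in wild-type testes. No wild-type library came near the Stra8-deficient ones, and Cdc25c was called higher, at 1.49 ± 0.22 in log2 (edgeR, adjusted p = 1.88e-04).

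Within the Cdc25 reads, Cdc25a held 43.9 ± 4.91% in Stra8-deficient and 86.8 ± 0.958% in wild-type libraries. The share of Cdc25b was 19.6 ± 6.36% against 2.12 ± 0.291%, and that of Cdc25c 36.5 ± 11.2% against 11 ± 0.857% in wild type (SD, n = 3 each). Wild-type Cdc25 reads were thus mostly of Cdc25a, and Stra8-deficient reads were spread over all 3. The log2 ratio of Cdc25a to Cdc25b differed by -4.13 between genotypes and that of Cdc25a to Cdc25c by -2.66. Cdc25b to Cdc25c differed by 1.47, or by 0.96 with the first Stra8-deficient library left out. Groups did not overlap in these 3 ratios (exact two-sided permutation test, p = 0.1 each). Cdc25b overlaps Spef1 on the opposite strand, with 1.77% of its windows shared; Spef1, a gene of sperm flagella, had 36, 24 and 49 reads in Stra8-deficient libraries against 438, 494 and 399 in wild type.

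The order of the genes was compared on levels per length, in CPM per kilobase of the longest protein-coding transcript in GENCODE M21. In Stra8-deficient testes Ccna2 (60.1 ± 6.31) and Ccnb2 (50.2 ± 13.7) led, with overlapping ranges. Next came Cdc25c (27.2 ± 5.33), Cdk2 (21.1 ± 5.07) and Cdc25a (18.6 ± 6.60), each overlapping the next. Ccne1 (10.4 ± 1.11), Cdc25b (10.0 ± 5.6) and Ccne2 (6.14 ± 1.37) followed, again overlapping in turn. Ccnb1 (1.97 ± 0.567) and Ccna1 (1.71 ± 0.363) were lowest and overlapped (SD, n = 3 each, CPM per kilobase). In wild-type testes Ccna1 (119 ± 17.1) and Ccnb2 (115 ± 5.69) were at the top with overlapping ranges. Cdk2 (45.5 ± 4.79) and Cdc25a (40.6 ± 3.25) overlapped below them. Cdc25c (9.65 ± 1.08) stood alone, and Ccne2 (7.11 ± 1.64), Ccne1 (6.24 ± 1.67) and Ccna2 (4.76 ± 0.497) formed a run of overlapping neighbours. Cdc25b (1.16 ± 0.0771) and Ccnb1 (0.354 ± 0.174) were lowest and did not overlap. Ccna1 thus stood first of 10 in wild type and last in Stra8-deficient testes, and Ccnb2 came next after the leading gene in both. The place of Ccnb1 is uncertain, because 44.8% of its 40-base windows occur in transcripts of other genes and its full length was used.

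The scaling of libraries moved all fold changes together. The median over all genes tested was 0.11 with TMM, -0.009 with RLE, 0.38 with upper-quartile factors, 0.73 with library size alone and 3.10 with libraries scaled to a list of Sertoli cell genes. Ccna1 was lower and Ccna2, Ccnb1, Ccne1, Cdc25b and Cdc25c were higher under all 5 scalings, although Ccne1 was not called with RLE. Ccnb2, Cdk2 and Cdc25a were lower under 4 of the scalings and turned to 1.69, 2.01 and 1.84 under the Sertoli scaling. The Sertoli genes did not move alike with TMM. Wt1 (-0.31) was not called, while Sox9 (-4.00), Aard (-4.35) and Amhr2 (-4.08) were lower. Amhr2 had 177, 20 and 469 reads in Stra8-deficient and 1972, 2209 and 1376 in wild-type libraries. The reversals under the Sertoli scaling therefore depend on an uneven list. With library size alone Cdk2 (-0.49) and Cdc25a (-0.51) were not called. Higher genes made up 51.5% of all calls with TMM, 48.9% with RLE, 57.3% with upper-quartile factors, 63.6% with library size alone and 86.6% with the Sertoli scaling.

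**Figure D4:**
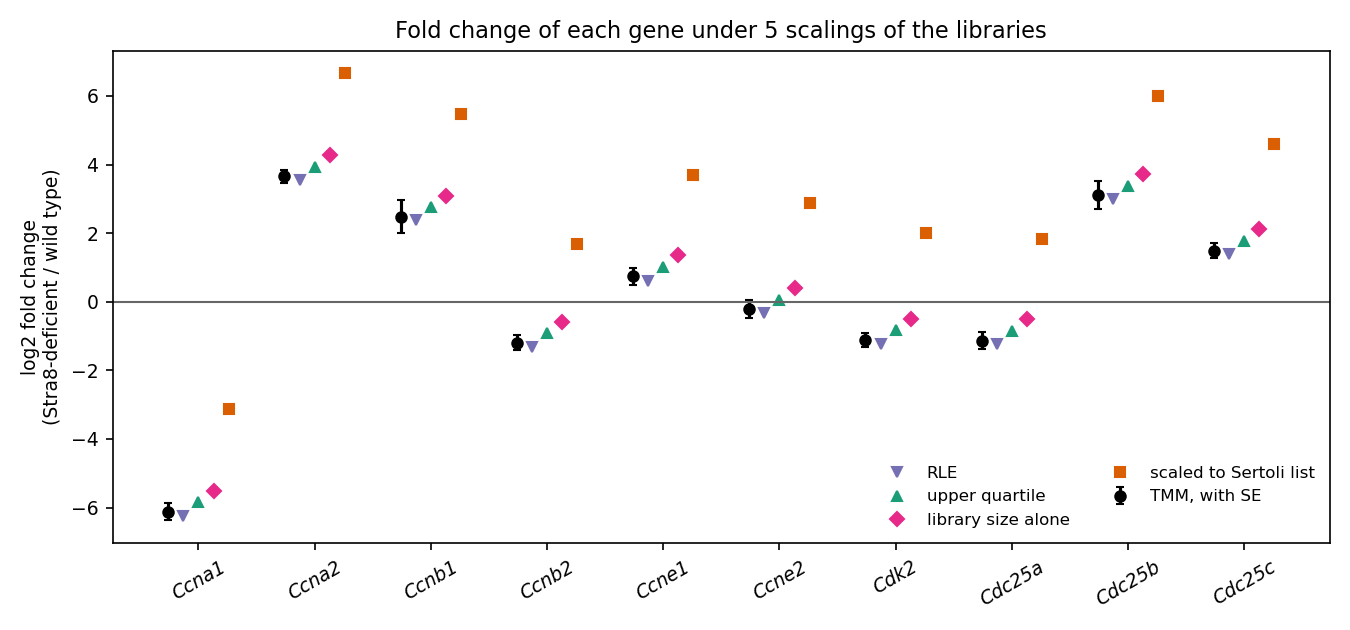
Log2 fold change of each of the 10 genes, Stra8-deficient over wild type, under 5 scalings of the libraries, with the SE for TMM. Ccna1 lies below 0 and Ccna2, Ccnb1, Ccne1, Cdc25b and Cdc25c above 0 in each, while Ccnb2, Cdk2 and Cdc25a cross 0 with libraries scaled to the Sertoli list.

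Markers of other cell types moved with these genes. The counts of called markers stand beside 39% higher and 36.7% lower over all genes tested. The share of gene reads held by pachytene and dividing spermatocyte markers was 0.0234% to 0.0331% in Stra8-deficient libraries, against 0.952% to 0.992% in wild type, and 13 of 13 genes were called lower. Round spermatid markers held 0.00131% to 0.00168% against 0.226% to 0.239% (11 of 11 lower; no reads of Catsper1 and Spata3 in Stra8-deficient libraries). Elongating spermatid markers held 0.000844% to 0.00206% against 2.62% to 2.95% (12 of 12 lower; Prm3 without reads). Cyclin A1 of the mouse is known from late spermatocytes. Undifferentiated spermatogonia held 0.164% to 0.267% against 0.00306% to 0.00389% (10 of 10 higher, with Pax7 at 0 in wild type). Differentiating spermatogonia held 0.269% to 0.394% against 0.0880% to 0.0906% (6 higher and 2 lower of 8). Different genes made up most of that share. In Stra8-deficient libraries it was Ccnd2, with 20209, 15746 and 17845 reads against 108, 102 and 82. In wild type it was Dmrtb1, with 6099, 6822 and 5136 reads against 35, 25 and 21 in Stra8-deficient libraries. Meiotic prophase markers overlapped, at 0.128% to 0.182% against 0.142% to 0.146% (6 of 11 lower and 0 higher). Stag3, which was not called (-0.22), had the most reads of this list in every library. The lower genes were Spo11 (-3.74), Rec8 (-2.86), Prdm9 (-2.10), Sycp2 (-1.71), Hormad2 (-0.90) and Sycp3 (-0.39). In all marker lists the shares are of unscaled reads, while the calls follow TMM scaling.

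Somatic markers moved too, and their counts also stand beside 39% higher and 36.7% lower over all genes tested. Macrophage markers held 0.0716% to 0.263% of gene reads in Stra8-deficient libraries, against 0.00903% to 0.0101% in wild type, with 10 of 11 genes higher and Mmp12 at 0 in the wild-type libraries. Sertoli cell markers held 0.00909% to 0.0205% against 0.0687% to 0.0778% (9 of 11 lower). Endothelial markers held 0.0107% to 0.0291% against 0.00464% to 0.00548% (3 of 5 tested higher). Peritubular markers held 0.0212% to 0.0532% against 0.0152% to 0.0180% (1 higher and 1 lower of 6). The higher gene was Des, with 1037, 735 and 1988 reads against 39, 47 and 52 in wild type. Acta2 (-0.50), Myh11 (-0.56), Cnn1 (-1.31, called) and Myl9 (-0.99) had negative log2 fold changes, and Tagln (1.63) was not called. The rise in the peritubular share was thus not shared by the whole list. Lymphocyte markers held 0.00157% to 0.00362% against 0.000419% to 0.000662% (2 higher and 1 lower of 3 tested, with Cd79a at 0 in wild type). Leydig cell markers ranged from 0.00226% to 0.339% in Stra8-deficient libraries, on both sides of the 0.0636% to 0.106% in wild type. With the third Stra8-deficient library left out, the difference in the macrophage share was 0.0731 percentage points in place of 0.133, and that in the peritubular share 0.00505 in place of 0.0156. The exact two-sided permutation test gave p = 0.1 for each of these shares except those of meiotic prophase and Leydig cells (p = 1). The part of the changed cell makeup in the levels of the 10 genes was not tested.

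Genes that control Cdk1 and Cdk2 more directly went both ways. Of 21 tested, 13 were higher, 3 lower and 5 not called, and the median log2 fold change was 1.28. For this list and the 3 that follow, the corresponding shares over all genes tested are 39% higher and 36.7% lower, with 75.8% called and a median of 0.11. Chek2, a DNA damage kinase that inhibits Cdc25 phosphatases, was at 41.4 ± 13.6 CPM in Stra8-deficient and 2.33 ± 0.588 CPM in wild-type testes (4.13 ± 0.34; edgeR, adjusted p = 5.16e-06). Cks1b, a small subunit that binds the kinases, rose by 3.81 ± 0.44. Spdya, a non-cyclin activator that binds Cdk2 in meiosis, fell to 2.02 ± 0.348 CPM in Stra8-deficient testes, against 101 ± 1.98 CPM in wild type (-5.65 ± 0.22; edgeR, adjusted p = 5.79e-08). Plk1, a kinase that promotes M phase, was lower at -1.95 ± 0.24. Cdk1, the partner of the B-type cyclins and chosen after its values were seen, was at 56.1 ± 4.70 CPM against 44.2 ± 3.70 CPM in wild type, with a log2 fold change of 0.34 ± 0.17 that was not called (edgeR, adjusted p = 0.0955).

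Genes of ubiquitin-mediated turnover, which remove cyclins and Cdc25a, went both ways. Of 22 tested, 12 were higher, 6 lower and 4 not called, with a median of 0.84. Paired inhibitors of the anaphase-promoting complex moved in opposite directions: Fbxo5, which acts in mitotic cells, rose by 3.81 ± 0.38 (edgeR, adjusted p = 1.90e-05), and Fbxo43, known from meiosis, fell by 3.72 ± 0.31 (edgeR, adjusted p = 5.18e-06). Anapc4, a subunit of the complex, rose by 2.69 ± 0.29, and Fzr1, its activator in late mitosis and G1, was lower at -1.71 ± 0.30.

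Among E2F, RB and MuvB regulators, which control transcription of cyclin genes, 10 of 20 tested were higher, 6 lower and 4 not called, with a median of 0.61. E2f6, a repressor that acts on germ-line genes in somatic cells, was at 85.7 ± 6.17 CPM in Stra8-deficient and 4.72 ± 0.386 CPM in wild-type testes (4.18 ± 0.20; edgeR, adjusted p = 1.73e-07). E2f1, an activator of replication genes, rose by 2.85 ± 0.21. Rbl2, the pocket protein p130 of resting cells, fell to 7.37 ± 3.37 CPM in Stra8-deficient testes, against 139 ± 10.3 CPM in wild type (-4.22 ± 0.33; edgeR, adjusted p = 3.55e-06). Mybl1, the A-MYB factor of pachytene spermatocytes, which also stands in the spermatocyte marker list, fell by 2.91 ± 0.28.

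Of 20 genes of mitotic proliferation, 12 were called higher and 8 were not called, with a median of 0.73; among all genes tested 39% were called higher and 75.8% were called in either direction. With TMM and all 6 libraries, edgeR called 0 lower, also at an unadjusted p under 0.05. It called 1 lower with RLE size factors and 1 with the second Stra8-deficient library left out, and DESeq2 called 1 lower. Tyms, which makes thymidylate for DNA synthesis, had 104, 94 and 216 reads in Stra8-deficient and 7, 0 and 5 in wild-type libraries (4.10 ± 0.69; edgeR, adjusted p = 5.00e-04). Anln, a cytokinesis gene, rose by 1.72 ± 0.18 (edgeR, adjusted p = 2.80e-05). The changes of Ccna2 (3.66) and Ccnb1 (2.48) lay above that median and those of Ccnb2 (-1.20), Cdk2 (-1.11) and Cdc25a (-1.13) below the lowest value of the list, which was -0.34.

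**Figure D5:**
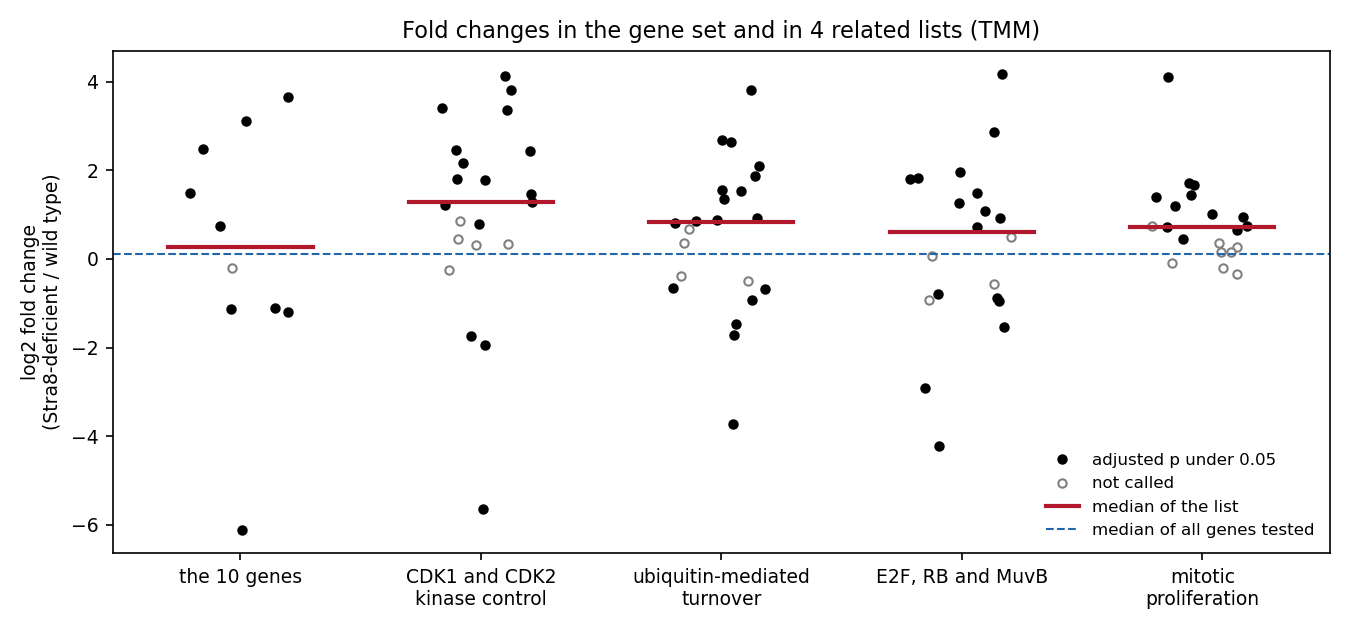
Log2 fold change (Stra8-deficient over wild type, TMM) of each gene of the set and of 4 related lists, filled where called and open where not, with the median of each list in red and the median of all genes tested (0.11) as a dashed line. The list of mitotic proliferation genes reaches down to -0.34, while the 10 genes extend to -6.12.

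The genes whose levels over the 6 libraries lay closest to Ccna1, by Euclidean distance of centred log2 CPM among 15001 genes, were Zan (distance 0.342), Elovl2 (0.359) and Zmynd12 (0.379). Zan, a sperm membrane protein gene, was at 1.60 ± 0.444 CPM in Stra8-deficient and 134 ± 22 CPM in wild-type testes (SD, n = 3 each). Elovl2, a fatty acid elongase gene, was at 6.44 ± 0.70 CPM against 473 ± 28.2 CPM, and Zmynd12 at 0.724 ± 0.158 CPM against 56.9 ± 2.61 CPM in wild type. Those closest to Ccna2 were Jph1 (0.225), Sp8 (0.259) and Rcan3 (0.277). Jph1, a junctophilin gene, was at 39.7 ± 7.18 CPM against 2.87 ± 0.224 CPM in wild type. Sp8, a transcription factor gene, had 31, 27 and 38 reads in Stra8-deficient libraries and none in wild type. It was at least 17.3-fold higher, taking 3 counts over the 3 wild-type libraries as the floor. Rcan3, a calcineurin regulator gene, was at 106 ± 3.38 CPM against 8.39 ± 0.105 CPM in wild type. With 6 libraries in 2 groups, this distance reflects mostly the genotype difference.

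The authors' deposited table, from their own edgeR comparison, gave log2 ratios of -6.12 for Ccna1, 3.66 for Ccna2, 2.51 for Ccnb1, -1.20 for Ccnb2 and 0.74 for Ccne1. In the authors' deposited table the ratios of Ccne2, Cdk2, Cdc25a, Cdc25b and Cdc25c were -0.21, -1.10, -1.13, 3.11 and 1.5. Its corrected p was 0.607 for Ccne2 and 0.0433 for Ccne1, the largest among the other 9 genes.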

How the data were processed

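TopHat, HTSeq, edgeR and the build mm9 are named in the submitters' processing notes, without versions or settings. For each library the authors deposited raw counts, that is whole reads per gene symbol. The authors' deposited table holds log2 ratios and p-values, nominal and corrected. HTSeq's counters (20.9% to 34.5% of reads) were left out. 

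Counts of the 21786 symbols present in all 6 files were filtered with filterByExpr (15018 kept) and scaled by TMM (factors 0.796 to 1.27). They were fitted with edgeR's quasi-likelihood F test (edgeR 4.0.16, R 4.3.3, robust) with genotype as the only term. The fit was also run on simulated data in which few genes changed and both genotypes had the same spread. That run cannot check the fit where most genes are called or where the spreads differ. The SE is the log2 fold change over the square root of F. The spread is shared between genotypes, although the biological coefficient of variation was 38.0% among the Stra8-deficient and 7.36% among the wild-type libraries. Replicates are separate males, per the labels. Ratios within a library used counts plus 0.5 and exact permutation in scipy. The SD of a class share is over the 3 libraries of a genotype, and marker shares are printed as ranges over them. Counting error within a library is not given for shares. Reads carry no molecular identifiers. In a single library, 3 counts equal 0.243 to 0.447 unscaled CPM.

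Members and lists were chosen with earlier results of these data known. Named genes were all 10 members; per related list, the 2 called genes with the largest change each way (mean log2 CPM 0 or more); and the 3 nearest genes to Ccna1 and to Ccna2. Listed genes absent from the files were Bora, Meiob, Tex36, Rhox5, Adgre1 and Trbc1. Alternatives were RLE, upper-quartile, library-size and Sertoli-list scaling, no low-count filter, DESeq2 1.42.0, a replicate block, an added count of 2, and leaving out each library.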

Additional observations from a re-analysis of the deposited data

How the results depend on the processing

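With libraries scaled to the Sertoli list, 11553 genes were called higher and 1785 lower, against 5860 and 5519 with TMM. Of the 10 genes, 9 were then higher and 1 lower; Ccnb2 (1.69), Ccne2 (2.86), Cdk2 (2.01) and Cdc25a (1.84) reversed. In the same scaling 20 genes of kinase control were higher and 1 lower, 21 turnover genes higher and 0 lower, 18 E2F, RB and MuvB genes higher and 1 lower, and all 20 mitotic genes higher; this follows from its shift of 2.99 in the median of all genes. With library size alone, 2 of the 10 genes, 3 turnover genes and 3 E2F, RB and MuvB genes were called lower, and Ccne2 was at 0.40; with upper-quartile factors Ccne2 was at 0.0612. Of the mitotic genes, 1 was called lower with RLE, 1 in DESeq2, and 0 to 1 when a library was left out. Leaving out each library gave 4 to 5 members higher, 4 lower, and 10357 to 11726 genes called. The differences in the shares of meiotic prophase (-0.0166 to 0.0107 percentage points) and Leydig markers (-0.0667 to 0.102) changed sign when a library was left out. The meiotic prophase difference was negative without the second Stra8-deficient library (-0.0166) or the first wild-type library (-0.000154), and the Leydig difference without the third Stra8-deficient library (-0.0667). The cause was not tested. An added count of 2 reversed no ratio.

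Same-numbered libraries did not deviate together (correlations 0.0582, 0.0797 and -0.0404 across genes). No pairing by number was seen, although with 3 libraries per genotype a small shared effect could be missed. With the replicate block 11218 genes were called, and 5 of the 10 genes were higher and 4 lower; the ratios were tested by flipping signs, for which the smallest p is 0.25. Depth limits Ccnb1 most, with 3 to 7 wild-type reads.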
